A study of Mus musculus with 64 samples.

Results

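A set of 8 genes was picked on the deposited counts themselves, because in each of them both mice that carried Cre differed from both mice that did not, in the same direction. They are 4 protein-coding genes, a (agouti), Cntn4, Pianp and C1rb, and 4 processed pseudogenes, Gm13394, Gm13453, Gm8116 and Gm12312. They were taken by name from the 55385 genes counted, of which 22187 passed the filter on low counts. All 8 passed it, but a gene can pass through the mice in which it is high. Since the difference between Cre-positive and Cre-negative mice chose the genes, it is given below as a description with no test. The tests are kept for the control mice against each other, the Cre-positive mice against each other, and the difference between the 2 Cre changes.

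Total RNA of 8 mammary tumors from 4 female mice was sequenced as stranded libraries after removal of ribosomal RNA. All mice carried the PyVT transgene (polyomavirus middle T antigen, PyMT), which makes mammary tumors, and at least 1 floxed Abi1 allele, and Cre under the MMTV promoter, active mainly in mammary epithelium, deletes that allele. Neither mouse G144 (Abi1 fl/wt; tumors 6 and 8) nor mouse G184 (Abi1 fl/fl; tumors 6 and 9) carried Cre, and they served as heterozygous and homozygous controls. Cre was present in mouse G164, a heterozygous KO (Abi1 fl/wt; tumors 3 and 6), and in mouse G174, a homozygous KO (Abi1 fl/fl; tumors 1 and 6). Each genotype was thus 1 mouse, and G164 and G184 were older than G144 and G174. The methods give the PyMT and the Abi1-floxed lines as C57BL6 and the Cre line as of mixed strain. In this design Cre, whatever else the Cre line brought in and the individual mice cannot be told apart. Age also differs between the control mice and between the Cre-positive mice. The difference between the Cre changes sets G174 and G144 against G164 and G184, the younger mice against the older. A lower change in homozygotes thus cannot be told apart from a lower level in the younger mice. In the fit over tumors, a p-value was set against how far the pair of tumors within a mouse differed. It was not set against how far mice of a genotype differ. In the fit over mice, counts were summed per mouse. Its p-values were set against how far the mice of a Cre class differed, and these also differ in genotype and age.

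Agouti is a small secreted protein that blocks the melanocortin receptor Mc1r, and in the skin it switches melanocytes from black to yellow pigment. C57BL/6 mice are black because they carry a nonagouti allele of this gene. Contactin 4 (Cntn4) is a cell adhesion protein of neurons, and Pianp is a membrane protein that binds the immune receptor Pilra. C1rb is a mouse relative of C1ra, a serine protease of the first complement complex. A processed pseudogene is a DNA copy of a spliced messenger RNA that was inserted elsewhere in the genome, so within the copied part its transcripts differ from those of its parent only where one of them has changed.

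The genes lie on 4 chromosomes of GRCm38. On chromosome 2, which also holds Abi1 (chr2:22940073-23040241, minus strand), Gm13394 (chr2:28933610-28934609, minus strand) lies 5.89 Mb and Gm13453 (chr2:40127504-40127860, minus strand) 17.1 Mb from Abi1. The gene a (chr2:154791402-155051012, plus strand) lies 132 Mb from it, near the other end of the chromosome. On chromosome 6, C1rb (chr6:124570294-124581171) and Pianp (chr6:124996694-125003096) lie 0.416 Mb apart, and Cntn4 (chr6:105677660-106699310) lies 17.9 Mb before C1rb, all on the plus strand. Gm8116 is on chromosome 9 (chr9:78820638-78821838, minus strand) and Gm12312 on chromosome 11 (chr11:70358138-70358781, plus strand). A match of the pseudogenes against all protein-coding transcripts, made after their values were seen, put the parents of 2 of them on chromosome 6 as well. Gapdh, the parent of Gm13394, lies 0.159 Mb from Pianp, and Fgfr1op2, the parent of Gm12312, lies 21.6 Mb from it.

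The sequence of each pseudogene is shown against its parent because, within the copied part, a read can be told from one of the parent only where they differ. Each stretch is 101 bases of the GRCm38 reference, 5′ to 3′ on the strand of the gene, and capitals mark the bases at which copy and parent differ. These are reference sequences, not sequences read from the mice. Gm13394 is 99.9% identical to the coding part of Gapdh, a glycolytic enzyme, over 1000 bases, with a single substitution, A346C. In such a token the parent's base comes first, then the position from 1 at the 5′ end of the pseudogene, then the base of the pseudogene. The first stretch is chr2:28934214-28934314, and that of Gapdh begins at base 388 of its transcript:
Gm13394: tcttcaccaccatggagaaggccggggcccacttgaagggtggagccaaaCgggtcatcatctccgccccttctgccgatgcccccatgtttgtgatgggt
Gapdh: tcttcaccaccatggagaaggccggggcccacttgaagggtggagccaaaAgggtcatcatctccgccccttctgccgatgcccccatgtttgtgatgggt

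Gm8116 is 99.8% identical over 1201 bases to Carnmt1, a methyltransferase that acts on carnosine, and carries the substitutions C136G and A874T. The stretch chr9:78821653-78821753 holds the first of them:
Gm8116: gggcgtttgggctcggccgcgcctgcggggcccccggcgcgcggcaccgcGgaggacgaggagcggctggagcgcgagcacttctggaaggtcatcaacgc
Carnmt1: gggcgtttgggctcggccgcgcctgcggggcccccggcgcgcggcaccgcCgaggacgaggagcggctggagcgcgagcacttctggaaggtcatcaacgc

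Gm13453 is 99.4% identical over 357 bases to Atp6v1g1, a subunit of the vacuolar proton pump, with the substitutions G92A and C182A, both within chr2:40127679-40127779:
Gm13453: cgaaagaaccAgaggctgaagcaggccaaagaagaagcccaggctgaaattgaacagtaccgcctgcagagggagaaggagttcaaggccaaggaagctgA
Atp6v1g1: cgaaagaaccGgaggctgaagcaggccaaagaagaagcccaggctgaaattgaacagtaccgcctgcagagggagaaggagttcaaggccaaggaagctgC

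Gm12312 has diverged most, with 96.6% identity to Fgfr1op2 over 644 aligned bases, 20 substitutions and 2 positions in gaps. The stretch chr11:70358653-70358753 holds 7 of these differences:
Gm12312: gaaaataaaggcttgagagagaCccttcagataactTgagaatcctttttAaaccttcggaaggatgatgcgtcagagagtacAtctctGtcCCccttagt
Fgfr1op2: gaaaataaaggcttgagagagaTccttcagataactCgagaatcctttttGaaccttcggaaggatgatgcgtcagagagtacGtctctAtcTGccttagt

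Abi1, the targeted gene, followed the labels. It stood at 111 and 130 CPM (counts scaled to a common library size, as in edgeR's cpm) in G144 and 114 and 122 CPM in G184, at 63.1 and 66.7 CPM in G164, and at 8.93 and 6.47 CPM in G174. The tumors had 50346075 to 69264893 counts in genes. Markers of mammary epithelium (7 genes, all detected) summed to 3243 to 3761 CPM in Cre-negative and 3227 to 3670 CPM in Cre-positive tumors.

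Agouti was the most strongly separated of the genes. It had 5 and 3 counts in the tumors of G144 and 7 and 5 in those of G184, but 6393 and 7670 counts in G164 and 3999 and 7672 in G174. In CPM these are 0.0762, 0.0538, 0.0988 and 0.0777 in the Cre-negative tumors against 122, 123, 60.9 and 116 in the Cre-positive tumors. Every Cre-positive tumor was far above every Cre-negative tumor, and tumor 1 of G174 was the lowest of the 4. The ratio of the mean CPM was 1375, and the ratio of the pooled counts was 1338 with a 95% interval (exact, counting error only) of 866 to 2190. Per kilobase of exon it stood at 90.1 CPM in Cre-positive tumors, against 29.6 CPM per kilobase for Abi1 in Cre-negative tumors.

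**Figure D1:**
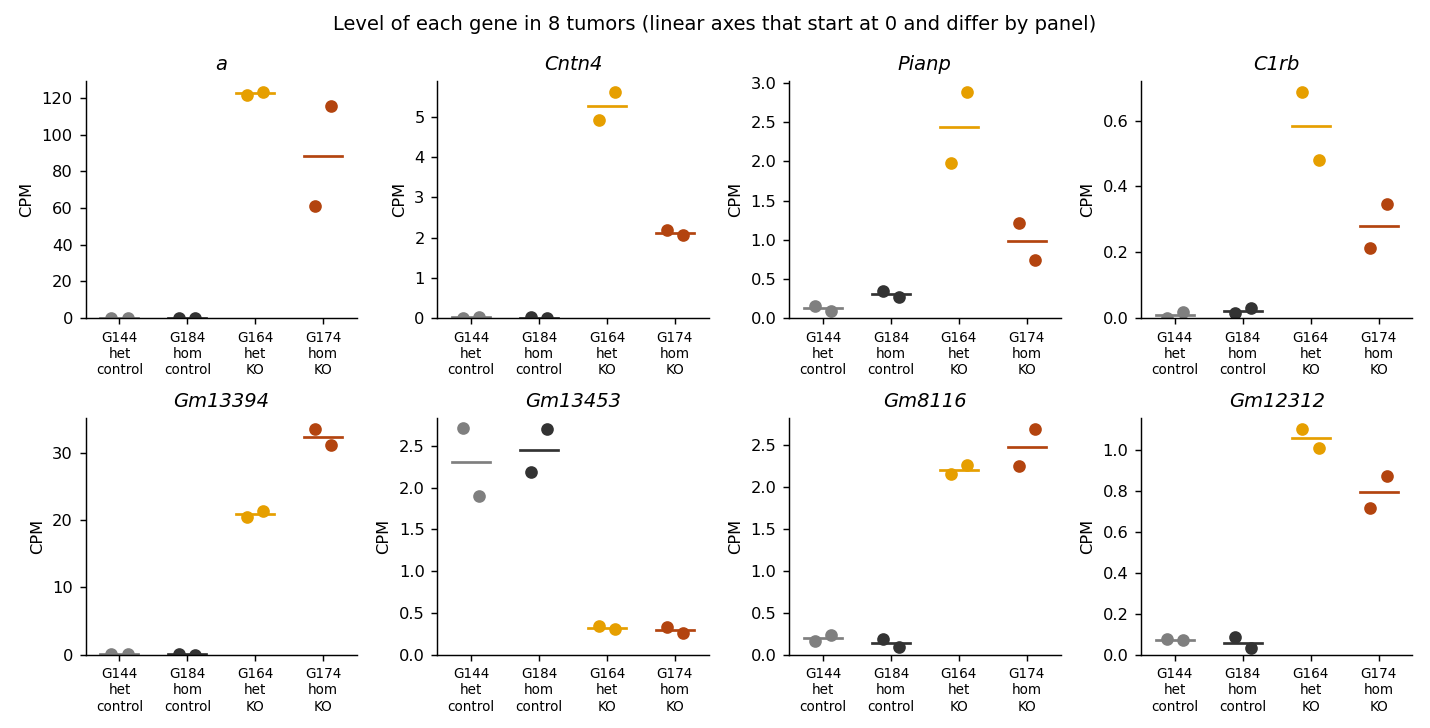
Each panel plots 1 of the 8 genes, with CPM on a linear axis from 0 and the 4 mice along the horizontal axis; points are single tumors and short lines the mean of a mouse. In 7 panels both Cre-positive mice (G164, G174) lie above both Cre-negative mice (G144, G184), and in the panel of Gm13453 they lie below.

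The reads of agouti also came from both strands in the Cre-positive tumors. Counts on the strand opposite to the gene were 1037 and 1416 in G164 and 1079 and 1036 in G174, against 7 and 10 in G144 and 6 and 3 in G184. They made up 11.9% to 21.3% of the stranded counts of the gene in the Cre-positive tumors, above the 4.76% to 6.80% over all genes. The antisense counts varied less between the 4 tumors than the sense counts, and tumor 1 of G174, lowest in sense counts, had the highest antisense share. Raly, an RNA-binding protein gene that shares the start of the annotated a locus on the same strand, had 127 to 171 CPM in Cre-positive and 140 to 181 CPM in Cre-negative tumors, so these ranges overlap. Eif2s2, a translation initiation factor gene inside the locus on the other strand, had mean levels of 116 CPM in Cre-positive and 123 CPM in Cre-negative tumors, and Gm14226, inside the locus on the same strand, had 30 counts in the Cre-positive and 11 in the Cre-negative tumors.

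**Figure D2:**
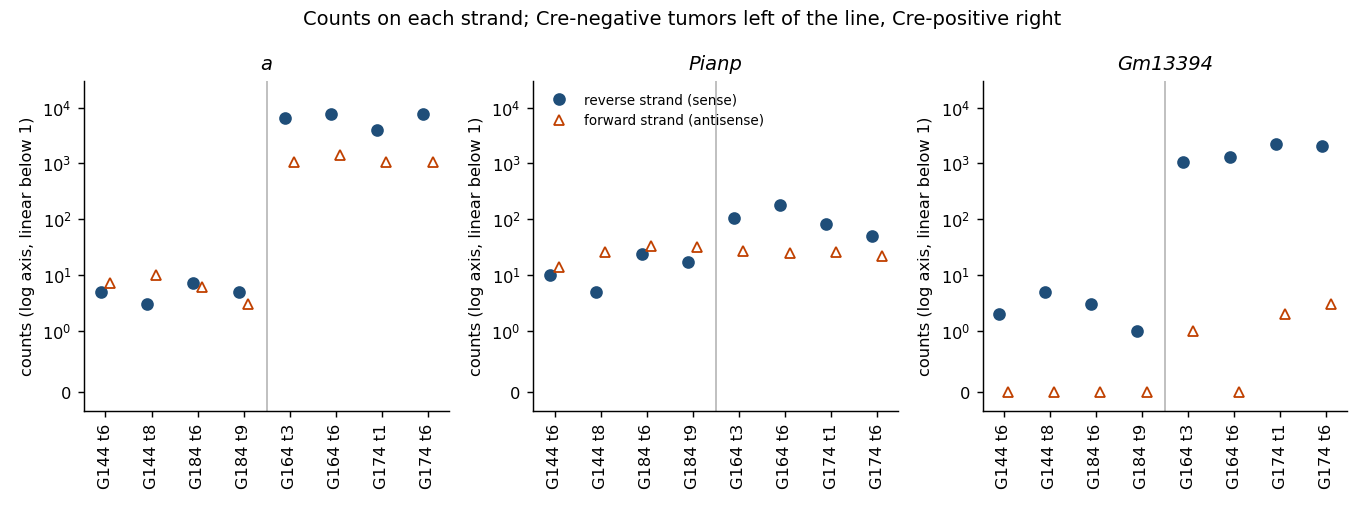
Counts per tumor on the strand of the gene (filled circles) and on the opposite strand (open triangles) are plotted on a log axis that is linear below 1, for a, Pianp and Gm13394. Both strands of a rise right of the line that parts Cre-negative from Cre-positive tumors, whereas the opposite strand of Pianp stays between 14 and 33 counts in all 8 tumors.

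The annotated a locus starts far before the usual agouti promoter: RefSeq places a start site 222168 bases downstream of the first base of the GENCODE gene. Counts per gene do not show which start was used. The bases before the first RefSeq start of a and of Cntn4, the protein-coding genes with the largest ratios, are printed here from RefSeq's table for GRCm38.p6, up to the first exon GENCODE annotates there. Capitals mark matches on either strand to the TATA box TATAAA, the CAAT box CCAAT, the GC box GGGCGG or the E-box CANNTG (overlapping matches allowed), and the 2 regions are chr2:155013320-155013471 and chr6:106118515-106118764:
a: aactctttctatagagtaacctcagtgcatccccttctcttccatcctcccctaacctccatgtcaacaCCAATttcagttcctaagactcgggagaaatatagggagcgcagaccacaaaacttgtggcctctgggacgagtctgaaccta
Cntn4: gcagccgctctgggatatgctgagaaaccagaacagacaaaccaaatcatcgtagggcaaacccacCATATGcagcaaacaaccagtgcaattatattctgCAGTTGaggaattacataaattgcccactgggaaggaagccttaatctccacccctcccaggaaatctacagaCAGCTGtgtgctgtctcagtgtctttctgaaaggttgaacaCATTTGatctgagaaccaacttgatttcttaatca

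The window of a, printed over 152 bases, holds 1 CCAAT and none of the other motifs. That of Cntn4, printed over 250 bases, holds 4 E-boxes and none of the others. RefSeq lists a second start for Cntn4, before which 1 E-box was found. Over the 250 bases before each of 32851 RefSeq start sites, CCAAT was found in 33.8% and an E-box in 66.2%, TATAAA in 12.4% and GGGCGG in 32.7%. Pianp and C1rb each had 2 E-boxes before their first listed start, so an E-box was found before the first start of 3 of the 4 protein-coding genes, and no single motif was found in all 4. RefSeq's table lists no promoter for the 4 pseudogenes.

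The partners of agouti were read in the same tumors. Of 13 genes of the melanocortin pathway, 6 passed the filter. None was called between the control mice, between the Cre-positive mice or in the difference of changes. Over all genes the fit called 12.6%, 7.1% and 25.1% in these comparisons, so with 6 genes this count is not a result about them. The receptor Mc1r had at most 0.0466 CPM in any tumor, its relative Mc4r at most 0.0191 CPM, and Mc3r had no count in any tumor, where 0 counts allow up to 3. Mc5r, the melanocortin receptor that passed the filter, had 0.0988 to 0.183 CPM in Cre-negative and 0.120 to 0.210 CPM in Cre-positive tumors. Attractin (Atrn), which agouti needs to act, had 64.5 to 81.3 CPM in Cre-negative and 70.0 to 83.7 CPM in Cre-positive tumors. Atrnl1, its paralog, had means of 120 and 126 CPM, and Mgrn1, a ubiquitin ligase that acts beside attractin, had 62.2 to 79.5 CPM and 71.0 to 94.7 CPM. For these 3 genes the unadjusted p of the fit over mice ran from 0.302 to 0.638, and the adjusted p (edgeR) was 1.

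The pigment enzymes Tyr, Tyrp1 and Dct had mean levels of at most 0.0128 CPM in either class, and 5 of 13 melanocyte genes passed the filter. Kit, a receptor of melanocytes and also of mammary epithelium, was higher in G184 than in G144 (adjusted p of edgeR 0.0149), and its changes differed by -2.33 ± 0.33 (SE) on the log2 scale (adjusted p 0.00483). Skin and hair follicle genes, by contrast, moved with 1 Cre-positive mouse: the 10 markers summed to 170 and 308 CPM in G164 but to 17.3 and 11.1 CPM in G174, within the 5.46 to 34.9 CPM of the Cre-negative tumors. Between the Cre-positive mice 3 of the 10 were lower in G174, and 4 had a lower change in homozygotes, where 7.1% and 25.1% of all genes were called. None of the 10 was at 0 throughout, and 2 of them, Krt15 and Lor, had an unadjusted p under 0.05 in the fit over mice (0.0079 and 0.0459; adjusted p of edgeR 1). Krt15 stood at 13.1 and 5.48 CPM in G174 and at 1.00 to 8.07 CPM in the Cre-negative tumors. The part of skin in the level of agouti was not tested. In bulk tumors fewer cells of a type and less RNA per cell cannot be told apart.

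Cntn4 was nearly absent from the Cre-negative tumors. It had 0 and 2 counts in G144 and 1 and 0 in G184, where 0 counts allow up to 3, against 258 and 350 in G164 and 143 and 137 in G174. In CPM the Cre-positive tumors stood at 4.92, 5.61, 2.18 and 2.06, so G164 was higher than G174 in both tumors and neither mouse overlapped the controls. The ratio of pooled counts was 308, with an interval of 105 to 1495 that is wide because the Cre-negative tumors hold 3 counts in all. Its opposite strand had at most 2 counts in a tumor.

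The family of Cntn4 was measured in the same tumors. Of 17 contactin relatives and partners 15 passed the filter, and 3 were higher in G184 than in G144, 2 were lower in G174 than in G164 and 3 had a lower change in homozygotes. Over all genes the fit called 12.6%, 7.1% and 25.1% in these comparisons, in either direction, so with 15 genes these counts are not a result about them. The 3 with a lower change were Nfasc (difference of changes -3.66 ± 0.59 SE on the log2 scale, adjusted p of edgeR 0.00779), Chl1 (-2.39 ± 0.30, adjusted p 0.00371) and L1cam (-1.54 ± 0.30, adjusted p 0.0135), all adhesion proteins of neurons. Chl1 is also the nearest tested coding gene before Cntn4, 1927 kb away, and its range of 35.3 to 85.0 CPM in Cre-positive tumors lay within the 32.8 to 105 CPM of the others. Cntn1 had the same split as Cntn4 at a low level, 0.0155 to 0.0717 CPM against 0.0953 to 0.391 CPM (unadjusted p 0.0124, adjusted p of edgeR 1). This split was found in 0.847% of all genes tested. Ptprz1, the other gene of the list with an unadjusted p under 0.05 (0.0349, edgeR over mice), had 10.2 to 22.5 CPM in Cre-negative tumors. It had 12.5 to 37.5 CPM in Cre-positive tumors, so its ranges overlap. Markers of nerve and Schwann cells summed to 84.8 to 102 CPM in Cre-negative and 81.7 to 111 CPM in Cre-positive tumors, so they did not separate the classes.

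Pianp was present in all tumors. It had 10 and 5 counts in G144 and 24 and 17 in G184, against 104 and 180 in G164 and 80 and 49 in G174. In CPM these are 0.152, 0.0896, 0.339 and 0.264 against 1.98, 2.89, 1.22 and 0.738, so the classes did not overlap and G174 was below G164. The ratio of pooled counts was 7.67 (5.79 to 10.3). Its opposite strand, which had 14 to 33 counts in Cre-negative and 22 to 27 counts in Cre-positive tumors, did not share this split.

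The receptors of Pianp were read beside it. Of 5 PILR and GABA-B receptor genes all passed the filter, 2 were higher in G184 than in G144, 1 was lower in G174 than in G164 and 3 had a lower change in homozygotes. Pilra, the receptor it binds, had a difference of changes of -1.22 ± 0.33 (SE) on the log2 scale (adjusted p of edgeR 0.038). The activating relatives Pilrb1 and Pilrb2 had differences of -2.57 ± 0.38 (adjusted p 0.00568) and -2.08 ± 0.41 (adjusted p 0.0148). Over all genes the fit called 12.6%, 7.1% and 25.1% in these comparisons, in either direction. Markers of macrophages, which carry these receptors, moved the same way: of 4, 2 were higher in G184, 3 were lower in G174 and 2 had a lower change in homozygotes, Csf1r by -2.08 and Adgre1 by -1.96 (adjusted p of edgeR 0.00479 and 0.00338). They summed to 121 and 168 CPM in G144, 216 and 290 in G184, 235 and 254 in G164 and 118 and 138 in G174, and their part in these differences was not tested.

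C1rb was the scarcest of the genes. It had 0 and 1 counts in G144 and 1 and 2 in G184, against 36 and 30 in G164 and 14 and 23 in G174. In CPM the Cre-positive tumors stood at 0.686, 0.481, 0.213 and 0.346, all above the highest Cre-negative tumor at 0.0311. The ratio of pooled counts was 26.8, with an interval of 10.1 to 100.1 that rests on 4 counts in the Cre-negative tumors. Its transcript is 97.9% identical to that of C1ra over 2431 aligned bases, so reads of the one could be counted for the other or left out, and its counts are uncertain for that reason.

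The paralog and the neighbours of C1rb did not share one pattern. C1ra, 46.9 kb away, had 8.96 and 10.4 CPM in G144, 29.0 and 26.8 in G184, 25.1 and 20.6 in G164 and 8.23 and 8.24 in G174. Its levels thus rose between the control mice (log2 1.53, adjusted p of edgeR 0.00342) and fell between the Cre-positive mice (log2 -1.47, adjusted p 0.00668), with no split by Cre. C1s2, a C1s protease gene 43.5 kb from C1rb, had 0.853, 0.448, 0.395 and 0.451 CPM in Cre-negative and 2.67, 1.76, 2.16 and 1.45 CPM in Cre-positive tumors, which do not overlap. Its log2 difference was 1.88 ± 0.40 (SE; unadjusted p 0.00672, adjusted p of edgeR 1 in the fit over mice). C1s1, 27.9 kb on the other side, had 15.2 to 39.1 CPM in Cre-positive and 24.4 to 62.5 CPM in Cre-negative tumors.

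Of 19 genes of C1 and the classical pathway all passed the filter. Between the control mice 8 were higher in G184 and none lower, between the Cre-positive mice 5 were lower in G174 and none higher, and 11 had a lower change in homozygotes, where the shares over all genes in either direction were 12.6%, 7.1% and 25.1%. Markers of some other cell types moved the same way, with a lower change in homozygotes for 5 of 5 of T cells, 4 of 5 of adipocytes, 2 of 4 of macrophages, 3 of 8 of fibroblasts and 4 of 10 of skin. Endothelium had 1 of 4 lower, and skeletal muscle had none of 4 called. Of 8 nerve and Schwann cell markers 2 were higher and 2 lower, and of 7 of mammary epithelium 1 was higher and none lower. The part of these cell types in the complement values was not tested. The largest differences of changes were -4.00 ± 1.13 for Cfd, a protease of the alternative pathway (adjusted p of edgeR 0.0421), -3.26 ± 0.70 for Cfb, its substrate (adjusted p 0.0186), -3.00 ± 0.21 for C1ra (adjusted p 0.000815) and -2.62 ± 0.42 for Serping1, the inhibitor of C1 (adjusted p 0.00715). The median difference of changes over the 19 was -1.45 against -0.0196 over all genes tested. C1rb itself had a difference of -2.29 ± 1.31 (adjusted p 0.233).

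Of the pseudogenes, Gm13394 was the most abundant in the Cre-positive tumors. It had 2 and 5 counts in G144 and 3 and 1 in G184, against 1076 and 1325 in G164 and 2198 and 2067 in G174. In CPM the Cre-positive tumors stood at 20.5, 21.3, 33.5 and 31.1, with no overlap with the Cre-negative tumors, which reached 0.0896 at most. The ratio of pooled counts was 630 (352 to 1263). It lies inside Cfap77 on the same strand, and that gene had mean levels of 0.728 CPM in Cre-negative and 0.540 CPM in Cre-positive tumors.

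Set against its parent, Gm13394 held a nearly constant share. Its CPM was 8.48% and 8.53% of that of Gapdh in the tumors of G164 and 8.97% and 8.27% in those of G174, against 0.00579% to 0.0208% in the Cre-negative tumors. Gapdh had 242 and 249 CPM in G164 and 373 and 376 CPM in G174, a log2 difference of 0.61 ± 0.10 (SE, adjusted p of edgeR 0.0192), and Gm13394 differed between the same mice by 0.63 ± 0.22 (adjusted p 0.13). Gapdh itself did not separate the classes, with 242 to 376 CPM in Cre-positive and 268 to 430 CPM in Cre-negative tumors. Reads that fit a pseudogene and its parent equally well are left out of both, so these shares compare counted reads and not transcript levels.

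Gm8116 had 11, 13, 13 and 6 counts in the Cre-negative tumors of G144 and G184, and 113 and 141 in G164 and 148 and 179 in G174. In CPM the Cre-positive tumors lay between 2.15 and 2.69 and the Cre-negative tumors between 0.0932 and 0.233, and the ratio of pooled counts was 14.1 (10.3 to 19.6). Its share of Carnmt1 was 20.9% and 20.6% in G164 and 18.7% and 21.9% in G174, against 0.743% to 1.53% in the Cre-negative tumors. The shares were again alike in the 4 Cre-positive tumors.

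Gm12312 had 5 and 4 counts in G144 and 6 and 2 in G184, against 58 and 63 in G164 and 47 and 58 in G174. The ratio of pooled counts was 13.8 (8.44 to 24.1), and its share of Fgfr1op2 was 0.658% to 1.06% against 0.0262% to 0.0762%. Every Cre-positive tumor lay above every Cre-negative tumor.

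Gm13453 went the other way. It had 106 to 178 counts in the 4 Cre-negative tumors, but 18 and 19 in G164 and 22 and 17 in G174. In CPM the Cre-negative tumors stood at 2.71, 1.90, 2.19 and 2.70 and the Cre-positive tumors at 0.343, 0.305, 0.335 and 0.256, so the classes did not overlap, and the pooled ratio of Cre-negative to Cre-positive counts was 7.76 (6.11 to 9.98). As a share of Atp6v1g1 it was 1.57% to 2.52% in Cre-negative and 0.270% to 0.357% in Cre-positive tumors.

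The parents of all 4 pseudogenes were tested over the mice, and their log2 differences between Cre-positive and Cre-negative mice ran from -0.30 for Carnmt1 to -0.12 for Fgfr1op2, with unadjusted p of 0.21 to 0.701 and an adjusted p (edgeR) of 1 for each. All 4 parents were thus slightly lower on average in the Cre-positive tumors, whichever way the pseudogene went. The ranges of Carnmt1 (10.3 to 12.3 CPM in Cre-positive and 12.5 to 16.0 CPM in Cre-negative tumors) and of Fgfr1op2 (104 to 109 CPM and 111 to 125 CPM) did not overlap, and those of Gapdh and Atp6v1g1 did. The deposited files have the layout of STAR's own counts per gene, which take only reads that map to 1 place. Which positions the counted reads covered, and which strain's sequence they carried, was not analysed here.

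**Figure D3:**
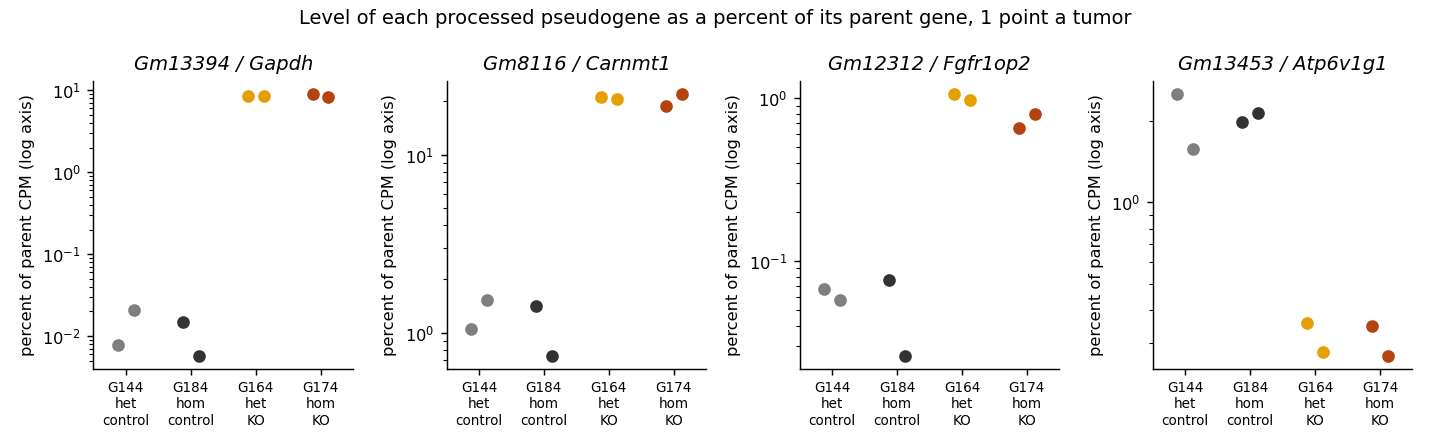
The CPM of each pseudogene is plotted as a percent of the CPM of its parent on a log axis, with 1 point a tumor and the 4 mice along the horizontal axis. The 4 Cre-positive tumors of Gm13394 lie between 8.27% and 8.97% of Gapdh and those of Gm8116 between 18.7% and 21.9% of Carnmt1.

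Per kilobase of exon, the order in the Cre-positive tumors was a (90.1 CPM per kilobase), Gm13394 (26.6), Gm8116 (1.95), Gm12312 (1.44), Gm13453 (0.868), Pianp (0.599), Cntn4 (0.435) and C1rb (0.178). The ranges of the first 5 did not overlap those of their next neighbour down to Gm13453. From Gm13453 on, each range overlapped the next. For the pseudogenes, reads that fit the parent equally well are not counted, yet the full exon length was used. Their values are thus not on the same scale as those of the coding genes.

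The 3 comparisons that the choice of genes did not use differ in what they can show. Over the 4 Cre-negative tumors Cntn4 had 3 counts, C1rb 4, Gm13394 11, Gm12312 17 and a 20, so 5 of the 8 passed the filter through the Cre-positive mice. For these 5, few counts limit the comparison of the controls and the difference of changes, and the number of calls among the 8 there is not a result about them. Between the control mice (G184 against G144) none of the 8 genes was called, where the fit called 12.6% of all genes tested. Their adjusted p (edgeR) ran from 0.105 for Pianp to 0.862 for Gm13453, with 4 higher and 4 lower in G184, and 1 of the 8, Pianp, had an unadjusted p under 0.05. Between the Cre-positive mice (G174 against G164) none was called either, and with 7.1% of all genes called this count for 8 genes is near the background, and 3 had an unadjusted p under 0.05. These 3 were Pianp at -1.32 ± 0.36 (SE; adjusted p 0.0754), Cntn4 at -1.31 ± 0.41 (adjusted p 0.103) and Gm13394 at 0.63 ± 0.22 (adjusted p 0.13) on the log2 scale. All 3 genes on chromosome 6 had lower values in G174, since C1rb stood at -1.05 ± 0.49 (adjusted p 0.221). The other values were -0.47 ± 0.26 for a, -0.41 ± 0.34 for Gm12312, -0.13 ± 0.32 for Gm13453 and 0.16 ± 0.30 for Gm8116, none of them called. DESeq2 called Cntn4 and Gm13394 between the Cre-positive mice, edgeR with no filter on low counts called Cntn4 and Pianp, and neither called any of the 8 between the controls. Without tumor 6 of G174, a was called (log2 -0.97, adjusted p of edgeR 0.0247). Scaled by library size alone, 240 of 1593 genes called between the Cre-positive mice were higher in G174 in place of 398 of 1576.

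The 2 Cre changes, homozygous and heterozygous, differed in 1 of the 8 genes. This contrast also sets the younger mice (G144, G174) against the older ones (G164, G184), so age cannot be told apart from it. The fit called 25.1% of all genes, but the standard errors of Cntn4 (3.72) and C1rb (1.31) show how few counts of the controls limit such a call. The change of Pianp was lower in the homozygous pair, by -2.60 ± 0.58 (SE) on the log2 scale (adjusted p of edgeR 0.0211), and this rests both on its higher level in G184 than in G144 and on its lower level in G174 than in G164. The call was lost, with an adjusted p of 0.0513 to 0.0731, when either tumor of G144, tumor 6 of G184 or tumor 6 of G164 was left out. Scaled by library size alone, 1895 of 5135 genes called had the higher change in homozygotes in place of 2672 of 5579. The other 7 had adjusted p from 0.16 for Gm13394 to 0.958 for Cntn4.

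**Figure D4:**
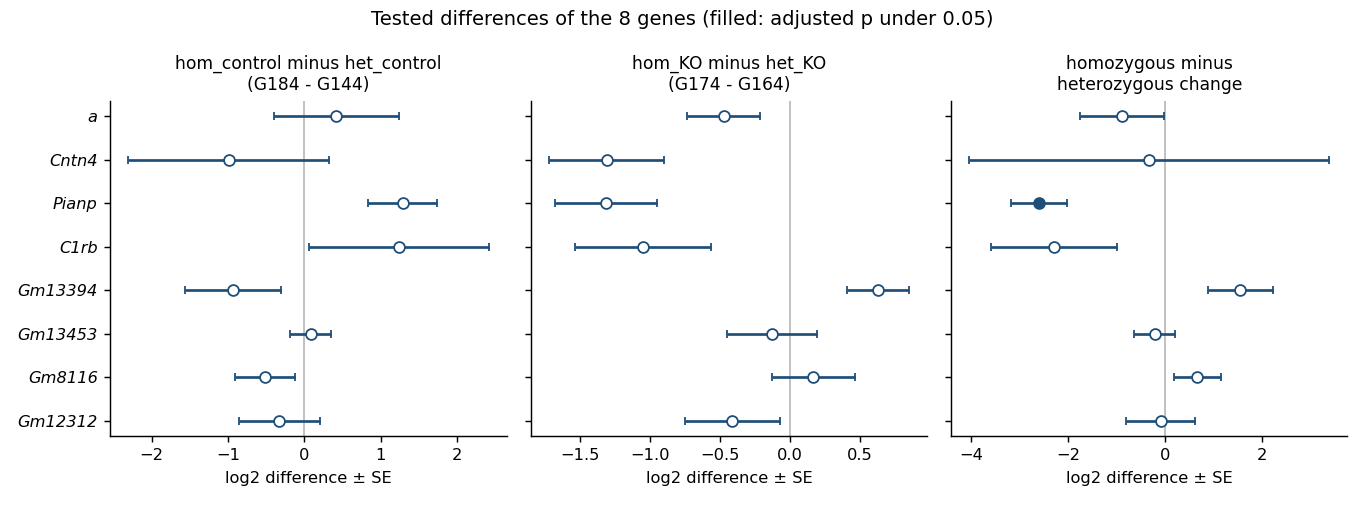
Log2 differences with their standard errors are plotted for the 8 genes in the comparison of the control mice, the comparison of the Cre-positive mice and the difference between the 2 Cre changes; filled points passed an adjusted p of 0.05. Only Pianp in the right panel, at -2.60, is filled.

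The same separation was counted over all genes to place the 8. Every Cre-positive tumor lay above every Cre-negative tumor in 188 of 22187 genes (0.847%) and below in 211 (0.951%), and the 8 genes are 7 of the former and 1 of the latter because they were picked for it. Of these 399 genes, 19 had a ratio of means at least as large as the smallest of the 8, Gm13453 at 7.67, or had no count in any Cre-negative tumor (Ighv1-62), and 11 of the 19 were other genes. Among these 11, named after their values were seen, were the milk genes Csn2 (ratio 13.1) and Csn1s2a (8.60) and the pseudogene Gm9855 (22.1), of which Csn2 ran from 4.76 to 75.4 CPM and Gm9855 from 0.248 to 5.87 CPM within the Cre-positive tumors. The nearest to the smallest of the 8 from above were Pianp itself (8.08) and Csn1s2a. Scaled by library size alone, 258 of 367 separated genes were higher in place of 188 of 399. Chromosome 6 had 38 of 1244 tested genes so separated (3.05%) and chromosome 2 had 33 of 1644 (2.01%), while the other autosomes and X ran from 0.473% to 2.77%. Chromosome 2 thus lay within the range of the others. The counts of chromosomes 6 and 2 each include 3 of the 8 genes, which were picked for this separation. Those of chromosomes 9 and 11 include 1 each. With the mouse as the unit, edgeR called none of 23281 genes, 191 of them (0.82%) had an unadjusted p under 0.05, and DESeq2 on the same sums per mouse called 22. The tumor-level fit called 20 genes (0.0901%), a count that includes the 8 by construction. With 2 mice against 2, an exact two-sided permutation test cannot go below 0.333.

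Most neighbours of the 8 genes did not share their separation. Within 1 Mb on either side lay 279 genes tested over the mice, and none was called at an adjusted p of 0.05 (edgeR). The same fit called none of all 23281 genes, so this count is not a result about the neighbours. By tumors, 2 of 267 (0.749%) lay wholly above and 1 (0.375%) wholly below, near the 0.847% and 0.951% over all genes. These 3, named after their values were seen, were C1s2, Cel, a lipase gene near Gm13394 (log2 1.36 ± 0.33 SE, unadjusted p 0.0113), and Gm8093 near Gm8116 (log2 -0.67 ± 0.43, unadjusted p 0.192). The unadjusted p was under 0.05 for 3 neighbours, which were C1s2, Cel and Bpifb3. Bpifb3, near a, had a log2 difference of 4.83 ± 1.23 (unadjusted p 0.0132), but 229 of its 259 counts in Cre-positive tumors came from tumor 6 of G174 and tumor 1 of that mouse had 0.

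Most of the nearest tested coding genes overlapped between the classes, and C1s2 beside C1rb, given above, did not. Ahcy, 8.30 kb after a, had 33.5 to 54.9 CPM in Cre-positive and 29.4 to 54.3 CPM in Cre-negative tumors, and Chmp4b, 96.6 kb before it, had 143 to 156 CPM against 151 to 181 CPM. Zfp384, 6.05 kb after Pianp, had 30.2 to 32.4 CPM against 27.3 to 34.4 CPM. Cops7a, 31.2 kb before Pianp, had 48.5 to 57.2 CPM against 47.9 to 54.2 CPM. The ranges of these 4 genes overlap. Ddx31 and Ttf1 beside Gm13394, Cd109 and Col12a1 beside Gm8116, Alox15 and Pelp1 beside Gm12312, Ppp6c and Lrp1b beside Gm13453 and Il5ra after Cntn4 had unadjusted p from 0.0818 (Lrp1b) to 0.976 (Ttf1).

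**Figure D5:**
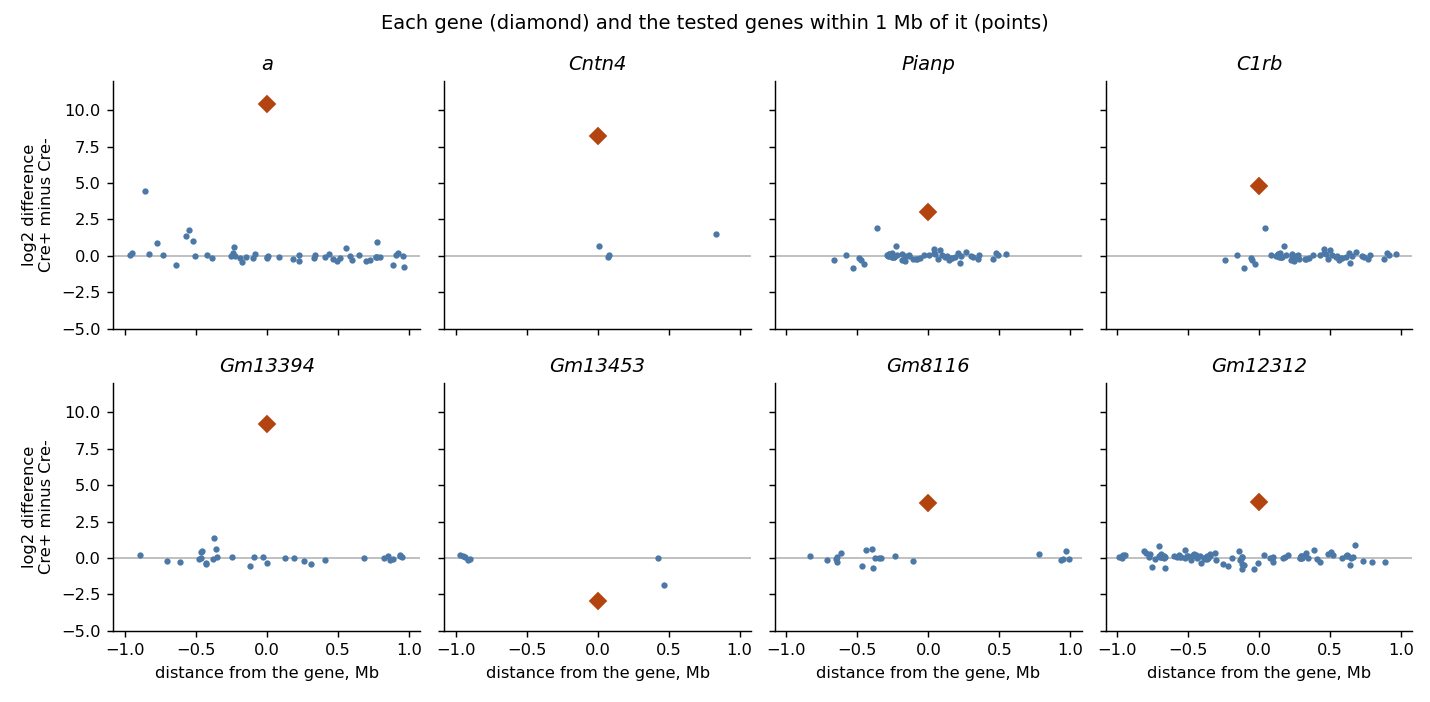
For each gene, the log2 difference between Cre-positive and Cre-negative tumors is plotted against the distance in Mb, with the gene as a diamond at 0 (ratio of mean CPM) and the tested genes within 1 Mb as points (edgeR fit over tumors). The median over all points is 0.02; the lowest is -1.84 near Gm13453, the highest is Bpifb3 at 4.45 near a, and C1s2 at 1.92 appears near both Pianp and C1rb.

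Over the 8 tumors the levels of the genes, as log2(CPM + 0.5), were compared with those of all genes that passed the filter. All points share the split into 4 and 4 tumors on which the genes were picked, so the values below are a description. The 3 genes most like a were Gm12312 (Pearson r = 0.994, n = 8 tumors), Gm8116 (0.992) and Gm13394 (0.989), and those most like Gm13394 were Gm8116 (0.996), a (0.989) and Gm12312 (0.971). Those most like Cntn4 were Gm12312 (0.986), a (0.973) and C1rb (0.965), and those most like Gm8116 were Gm13394 (0.996), a (0.992) and Gm12312 (0.981). Genes outside the set entered for the rest. Pianp was most like Cntn4 (0.960), then Adgrg1 (0.951), an adhesion receptor gene, and Gm7399 (0.945), and C1rb was most like Cntn4 (0.965), Gm12312 (0.957) and Adcy5 (0.957), an adenylate cyclase gene. Gm12312 was most like a (0.994), the immunoglobulin variable-region pseudogene Ighv1-62 (0.987) and Cntn4 (0.986). Gm13453 was most like Pip4p2 (0.979), Pgrmc1 (0.942) and Alad (0.930), whose log2 levels span 0.14, 0.20 and 0.74 over the tumors.

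Other cell types were read from their markers in the same tumors. Fibroblast markers (8 genes) summed to 1354 to 1949 CPM in Cre-negative and 1044 to 3005 CPM in Cre-positive tumors. Those of adipocytes (5 genes) summed to 12.7 to 32.9 CPM and 8.28 to 65.5 CPM, those of T cells (5 genes) to 6.99 to 17.1 CPM and 4.77 to 19.8 CPM, and those of endothelium (4 genes) to 95.5 to 135 CPM and 82.4 to 127 CPM. Skeletal muscle markers (4 genes) reached 188 CPM in tumor 8 of G144 and 245 CPM in tumor 3 of G164 and at most 1.36 CPM in the other 6 tumors. No marker list separated the 2 classes of tumors, and their part in the levels of the 8 genes was not tested.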

How the data were processed

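Reads were aligned by the authors to GRCm38/mm10 with STAR, after bcl2fastq (versions not given in the sources used here, nor the annotation), and the deposited values are raw counts per gene on either and on each strand, for 4 lanes in 2 runs of each tumor. The authors' table of counts summed per mouse equals the unstranded sums at all 55381 genes it lists. Here reverse-strand counts were summed to 1 value per tumor, and lanes and runs were not taken as replicates; 47.7% to 52.0% of reads fell outside genes there and were left out. Gene symbols and positions are those of GENCODE M21 (GRCm38), which holds 54487 of 55385 identifiers with their version and 657 with another; 241 took their symbol from the authors' table. The members, gene lists and tests were chosen with earlier results of these data known.

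Genes were filtered with filterByExpr, scaled by TMM and fitted over the 8 tumors with the quasi-likelihood test of edgeR 4.0.16 (R 4.3.3), with Benjamini-Hochberg adjusted p and a threshold of 0.05. Counts summed per mouse were fitted likewise, with 2 residual degrees of freedom. Pooled ratios have exact binomial intervals. Pseudogene parents come from blastn (BLAST 2.17.0) against protein-coding transcripts. Named are the 8 genes, Abi1, overlapping and nearest tested coding genes, neighbours called, the 3 genes most alike in level, up to 4 called genes (or the most abundant) of each pathway list, and C1ra, C1s1 and C1s2. Alternatives were DESeq2 (1.42.0) size factors and test, library-size scaling, no filter, unstranded counts, either run, other windows, the fit over tumors, and leaving out each tumor. The fit over tumors was tested on simulated data for the comparisons of the controls and of the Cre-positive mice. The difference of changes and the fit over mice were not tested in this way. Other steps used pandas 2.3.3 and scipy 1.17.1 (Python 3.11.15).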

Additional observations from a re-analysis of the deposited data

Results flagged for a closer look

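The change of Pianp with Cre differed between the homozygous and the heterozygous pair of mice by -2.60 on the log2 scale (test of the difference itself, adjusted p of edgeR 0.0211). The same contrast sets the younger mice against the older ones. The counts of a on the strand opposite to the gene were outside the main measurement, and their lowest value in a Cre-positive tumor was 1036, above the 3 to 10 counts of the Cre-negative tumors.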

How the results depend on the processing

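Each genotype is 1 mouse with 2 tumors, so the number of mice limits what the tests can say of a genotype, and the 3 or 4 counts of Cntn4 and C1rb in all Cre-negative tumors limit their ratios. All 8 genes kept the direction of their Cre difference and did not overlap between the classes under every alternative run. Of 360 values for their 24 tested differences, 330 kept direction and side of the threshold, 4 lost the call, 5 gained one and 21 reversed; of 112 values for the 8 Cre differences, 99 moved by under 1 SD and 13 by more, none reversing. Where a tumor was left out, the remaining tumor of that mouse was assumed to vary like the others. The cause of a change was not tested unless a sentence gives it. No paired analysis was possible because the mice share only tumor number 6, which names a tumor and pairs nothing.

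Genes called between the controls went from 2787 to 4471 with DESeq2 and to 205 to 3164 without 1 tumor. Between the Cre-positive mice they went from 1576 to 3597 with no filter, 3130 with DESeq2 and 181 to 1321 without 1 tumor. For the difference of changes they went from 5579 to 2079 to 4817 without 1 tumor. For Cre over mice they went from 0 to 4 with no filter, 22 with DESeq2, 20 in the fit over tumors and 0 to 1 without 1 tumor. No neighbour was called under any of 17 alternatives. The fits behind them called few genes anywhere, so this is not a result about the neighbours. Genes separated by class went from 399 to 656 to 1144 without 1 tumor, where fewer tumors need to be ordered. Scaling by library size moved the median difference of changes over all genes from -0.02 to -0.117.

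Values that reversed are these. Between the controls, a reached -0.43 with unstranded counts and -0.46 in the first run, C1rb -0.11 and Gm13453 -0.072 in the second run, and without 1 tumor Cntn4 ranged from -3.21 to 2.26, Gm13453 from -0.15 to 0.36 and Gm12312 from -1.21 to 0.21. Between the Cre-positive mice Gm13453 reached 0.30 in the first run and -0.33 to 0.084 without 1 tumor. For the difference of changes Cntn4 reached 0.96 in the second run and -3.57 to 1.92 without 1 tumor, Gm13453 0.065 in the first run and -0.45 to 0.022, and Gm12312 0.25 with unstranded counts, 0.042 in the second run and -0.62 to 0.83. The difference of Pianp ranged from -3.01 to -1.84 over all alternatives, with an adjusted p of edgeR or DESeq2 from 0.00213 to 0.0731.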
